A study of Mus musculus with 21 samples.

Results

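The contrast described here is the effect of losing JNK1 in skin minus its effect in liver, (skin KO minus skin WT) minus (liver KO minus liver WT), measured on 13 of the 21 arrays of the series. Of the 27560 gene names on the array, 12009 were kept, those whose probe stood well above background on 3 or more arrays in both tissues. A positive difference means that the KO effect was more positive in skin than in liver, either because the gene was higher in KO skin or because it was lower in KO liver. The series also holds arrays of epididymal fat, which enter only some alternative fits.

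The 4 groups were 4 arrays of skin and 3 arrays of liver from JNK1 knockout (KO) mice, and 3 arrays of skin and 3 arrays of liver from wild-type (WT) mice. The series text speaks of quadruplicates. Both genotypes were male, of strain background C57Bl6/J and 45 weeks old. All animals, WT included, ate a high-fat diet that began at weaning, at 5 weeks, and ended at 44 weeks. The labels do not say which part of the gene is deleted, whether a skin array and a liver array share an animal, or at what hour tissue was taken. P-values therefore measure only the spread between these samples.

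JNK1, encoded by Mapk8, is a kinase that is switched on by stress and cytokines through the upstream kinases MKK4 and MKK7, and it phosphorylates transcription factors such as c-Jun and ATF2. JNK2, encoded by Mapk9, is its close relative and overlaps with it in many tissues. In obese mice, JNK1 is known for its part in insulin resistance, and in liver for its effects on lipid handling, whereas in skin JNK signalling bears on keratinocyte growth and wound repair.

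No Mapk8 probe met the filter, so its difference was not tested. The brightest, at chr14:34204748-34204807 of mouse build mm9, read 5.90, 5.80, 4.88 and 5.19 in KO skin against 5.72, 6.75 and 6.92 in WT skin on the log2 scale, and 6.15, 5.48 and 5.35 in KO liver against 7.09, 7.22 and 7.67 in WT liver. It was well above background on 0 of 4 skin KO arrays, 2 of 3 skin WT arrays, 1 of 3 liver KO arrays and 3 of 3 liver WT arrays. In skin the measured mean was 2.03-fold lower in KO than in WT, with only 2 of the 3 WT arrays above background. The skin arrays overlapped, as skin WT 1, at 5.72, lay below skin KO 1 and skin KO 2. Mapk9 did not differ in its KO effect beyond error, with a difference of 0.08 (SE 0.34, adjusted p = 0.963), and another 2 probes of it gave -0.03 and -0.05. No Mapk10 probe was well above background on any array.

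Between 38.9% and 52.8% of probes were well above background on the skin arrays, and between 45.8% and 48.2% on the liver arrays. Tissue markers matched the labels: albumin mRNA lay at 13.03 to 14.88 in skin KO and 13.36 to 14.52 in skin WT, against 17.42 to 17.86 in liver KO and 17.42 to 18.04 in liver WT, and Krt14 lay at 16.26 to 17.90 in skin KO and 16.03 to 17.13 in skin WT, against at most 6.55 in liver. Liver KO 1, liver KO 2 and liver WT 3 read higher than the other liver arrays for some keratinocyte and muscle genes, though not for Krt10, which lay at 8.33 to 8.53 in KO liver and 8.23 to 8.36 in WT liver. Krt5 had 6.82, 9.71 and 9.47 on these 3 arrays, against 6.12 on liver KO 3 and 5.13 and 5.16 on liver WT 1 and 2. Ckm, the muscle creatine kinase, had 8.18, 6.86 and 7.59 on the 3 arrays, against 4.43 on liver KO 3 and 6.11 and 4.53 on liver WT 1 and 2. Some results below, not all, are also given without these arrays. Leaving them out moved several medians of the gene lists, some to the other sign. In whole tissue, fewer cells of a type and less RNA per cell cannot be told apart.

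Of the 12009 genes, 0 were called with a higher and 0 with a lower KO effect in skin than in liver at an adjusted p below 0.05 in limma (percent called 0 in each direction). The smallest adjusted p was 0.10, shared by Fam25c, Rgs16 and Bcl7c. At an unadjusted p below 0.05, 373 genes (3.11%) had a positive and 338 genes (2.81%) a negative difference, which is 5.92% of the genes in all. The median difference was 0.00 and the median standard error (SE) of a gene's difference was 0.31. In the same fit, 7 genes rose (0.0583%) and 1 fell (0.00833%) in KO skin, while 0 rose and 5 fell (0.0416%) in KO liver. At an unadjusted p below 0.05, 663 genes were higher (5.52%) and 656 lower (5.46%) in KO skin, and 191 higher (1.59%) and 316 lower (2.63%) in KO liver. Only Gpnmb was called in both tissues. Within each tissue, KO and WT arrays lay on different slides, and the part of slide in these calls was not tested.

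Across genes, the KO effects in skin and liver were almost unrelated, with r = 0.02 and the same sign in 49.5% of the genes. Genes are not independent replicates. The KO effect was positive for 47.5% of genes in skin and 46.1% in liver. In the plot of the effects, 3 arms leave the central cloud. Hair and keratin-associated genes lie on the skin axis, Fam25c, Rgs16, Usp2, Cidea and Cidec lie to the left on the liver axis, and genes of pancreatic enzymes lie to the right on it. Gpnmb and Gdf10 lie near the diagonal of equal effects.

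**Figure D1:**
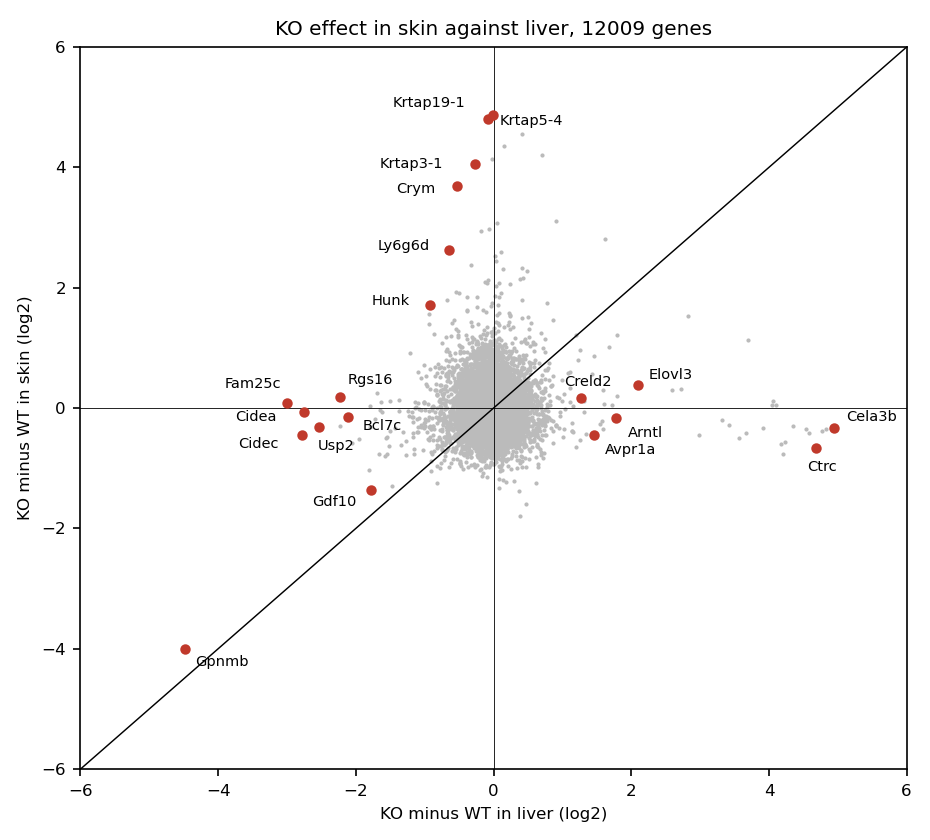
KO minus WT in skin (vertical axis, log2) against KO minus WT in liver (horizontal axis, log2) for the 12009 genes kept, 1 point a gene, with named genes in red. The diagonal marks equal effects. Krtap19-1 stands at 4.87 in skin and -0.01 in liver, Fam25c at 0.08 and -3.0, and Gpnmb at -4.0 and -4.48.

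The gene with the smallest p was Fam25c, at chr14:35165215-35166894 of mm9. It read 16.99, 16.70, 16.45 and 16.68 in KO skin and 16.28, 16.74 and 16.84 in WT skin, and 9.83, 11.23 and 9.63 in KO liver against 13.18, 13.42 and 13.08 in WT liver. The skin arrays overlapped, whereas every KO liver array was below every WT liver array. The liver effect was -3.0 and passed the test (adjusted p = 0.00421), the skin effect was 0.08, and the difference was 3.08 (SE 0.46, adjusted p = 0.10). Without liver KO 2, the KO array with the most Fam25c, the difference was 3.58 and was called (adjusted p = 0.000411). As liver KO 2 was the KO liver array nearest to WT, leaving it out by itself raises the difference. The difference was called in 4 of the 31 alternatives that gave it, with values from 2.75 to 3.75 over all of them. Fam25c lies on the chromosome of Mapk8, within 10 Mb of its probe. Of 79 kept genes in that window, 42 had a positive difference, with a median of 0.05, and 3 had an unadjusted p below 0.05, all positive, against 3.11% of all genes kept. They were Fam25c, Ppif and the probe NAP101988-1, which the files give no gene.

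Rgs16 encodes a regulator of G protein signalling whose liver mRNA is known to follow feeding and the daily clock. It read 7.95, 7.37, 7.74 and 7.77 in KO skin and 7.37, 7.84 and 7.35 in WT skin, and 11.21, 11.68 and 11.05 in KO liver against 13.47, 13.06 and 14.11 in WT liver. Again the skin groups overlapped and the liver groups did not. Its liver mRNA fell by 2.23 in KO (adjusted p = 0.00584), its skin effect was 0.18, and the difference was 2.42 (SE 0.37, adjusted p = 0.10). The difference was called in 5 of the 31 alternatives that gave it, with values from 2.08 to 2.66 over all of them.

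Bcl7c, which encodes a subunit of SWI/SNF chromatin remodelling complexes, read 12.04, 11.78, 11.56 and 11.87 in KO skin and 12.38, 11.69 and 11.83 in WT skin. In KO liver it read 9.59, 10.35 and 10.02, against 12.03, 12.03 and 12.26 in WT liver. The KO liver arrays were below both WT liver and all skin arrays. The difference was 1.97 (SE 0.31, adjusted p = 0.10), from a liver effect of -2.12 that passed the test (adjusted p = 0.00421). A second probe gave 1.94, but another gave -0.45, so the probes of Bcl7c disagree. The fifth gene that fell in KO liver, after Gpnmb, was Slc5a6, the sodium-dependent multivitamin transporter, whose difference was 1.09 (SE 0.29, adjusted p = 0.631).

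**Figure D2:**
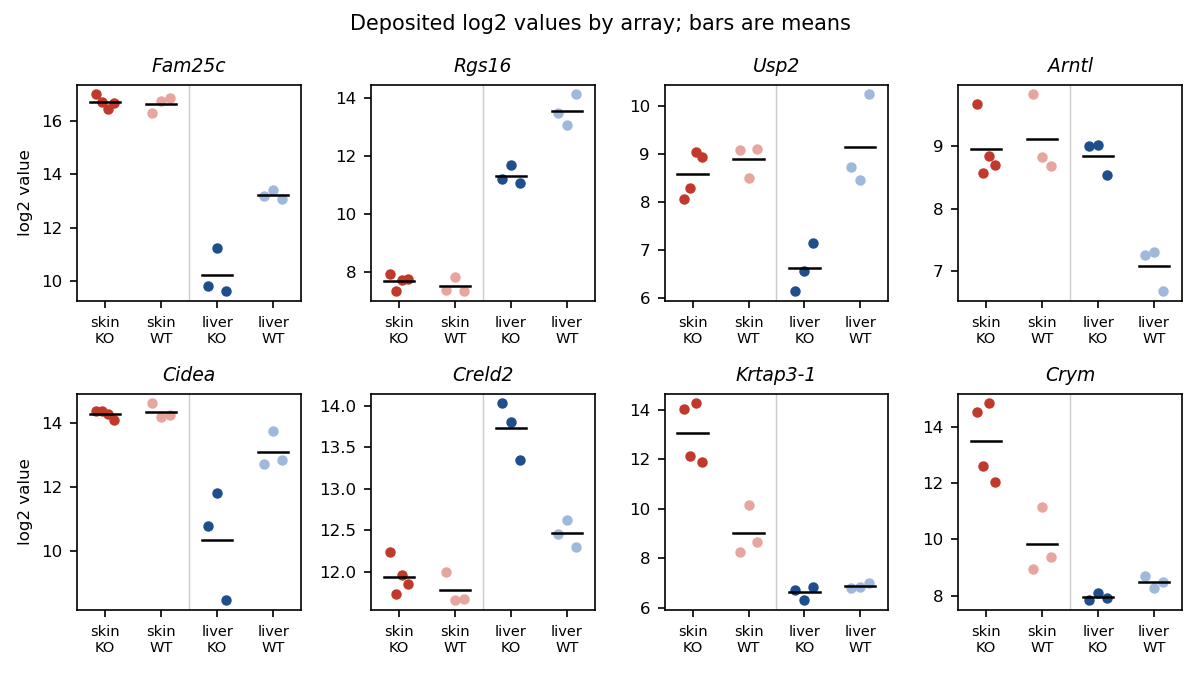
Deposited log2 value of 8 genes on each of the 13 arrays (1 point an array, bar the group mean), in the order skin KO, skin WT, liver KO, liver WT. Fam25c, Rgs16, Usp2 and Cidea are lower on all 3 KO liver arrays, Arntl and Creld2 are higher on them, and Krtap3-1 and Crym are higher on all 4 KO skin arrays.

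The most positive differences came from genes that were higher in KO skin and near the lower end of the scale in liver. Keratin-associated proteins form the matrix around keratin filaments in the hair shaft. Krtap19-1 read 17.56, 15.53, 16.95 and 14.85 in KO skin and 9.95, 12.86 and 11.26 in WT skin, and stayed between 7.52 and 7.96 in KO liver and between 7.49 and 8.13 in WT liver. All 4 KO skin arrays were above all 3 WT skin arrays, and the liver arrays overlapped. The skin effect of 4.87 was called (adjusted p = 0.0189), and the difference was 4.88 (SE 0.96, adjusted p = 0.444).

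Krtap5-4 had the largest difference of all genes kept, 4.89 (SE 1.07), and Krtap3-1 had 4.32 (SE 0.83). The transcript ENSMUST00000062005, which the files describe as keratin associated protein 19-9A, had 4.16 (SE 0.82), and ENSMUST00000079151, described as keratin associated protein 6-3, had 4.14 (SE 0.97). Gm11568 had 4.2 (SE 1.14), without a call in skin (adjusted p = 0.0757), and was well above background on only 1 of 3 KO and 2 of 3 WT liver arrays. The first 4 of these rose in KO skin, with adjusted p from 0.0189 to 0.029. KO skin arrays 1 and 3 read higher than KO skin arrays 2 and 4 for each of these genes. Members of this family are similar in sequence, and how far their probes cross-react was not analysed here.

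Only 1 of 20 hair follicle markers on the array, Krtap3-1, met the filter in both tissues, since 19 of the 20 were well above background on no liver KO array and 18 on no liver WT array. Their summed level in skin was 18.10 to 20.22 in KO and 14.46 to 16.77 in WT, without overlap. Keratinocyte markers summed to 20.21 to 20.69 in KO skin and 20.36 to 20.76 in WT skin. The part of the hair follicle content of the skin pieces in the other differences was not tested.

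Crym, which encodes a thyroid hormone binding protein, read 14.53, 12.60, 14.84 and 12.05 in KO skin and 8.95, 11.15 and 9.36 in WT skin. In liver it went the other way, with 7.84, 8.10 and 7.90 in KO against 8.70, 8.25 and 8.49 in WT. The groups did not overlap in either tissue, and the difference was 4.22 (SE 0.93, adjusted p = 0.521). Ly6g6d, a member of the Ly6 family, had a difference of 3.27 (SE 0.70), with a mean of 12.35 ± 1.10 in KO skin (SD, n = 4) against 9.73 ± 0.42 in WT skin (SD, n = 3), and no overlap between them.

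Fbp1, the gluconeogenic enzyme fructose-1,6-bisphosphatase, and Saa2, a serum amyloid A protein of the acute phase, are liver genes that also gave signal in skin. Fbp1 read 13.89, 13.56, 13.77 and 13.41 in KO skin and 12.67, 12.33 and 11.84 in WT skin. In liver it read 17.50, 17.49 and 17.57 in KO and 17.50, 17.57 and 17.28 in WT. It rose by 1.38 in KO skin (adjusted p = 0.0189), while the difference of 1.30 (SE 0.28) was not called (adjusted p = 0.521). Saa2 rose by 1.35 in KO skin (adjusted p = 0.029), and its difference was 1.21 (SE 0.30). The summed hepatocyte markers read 14.94, 16.56, 16.28 and 16.53 in KO skin and 15.88, 16.15 and 15.26 in WT skin. The groups overlapped through skin KO 1, and the other KO skin arrays lay above all WT skin arrays. The 14 hepatocyte markers kept had a median skin effect of 0.51. Their part in the Fbp1 and Saa2 values was not tested.

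A small set of genes lay on opposite sides of WT in the 2 tissues with no overlap of arrays in either. There were 27 such genes with KO above WT in skin and below it in liver (0.225%), and 22 the other way (0.183%). Crym, Hunk, Ppif and Atf2 were of the first kind. In skin alone, 4.27% of genes were wholly above WT in KO and 5.41% wholly below. In liver alone these shares were 4.73% and 6.86%. What count unrelated effects in the 2 tissues would give was not tested. Some gaps were narrow: Ppif in liver reached 9.441 in KO, against 9.446 on the lowest WT array. Hunk, a kinase gene, read 8.61, 7.13, 8.43 and 6.95 in KO skin, but no WT skin array was well above background, so KO skin was at least 3.27-fold higher. In liver it read 7.97, 7.37 and 6.72 in KO against 8.44, 8.14 and 8.26 in WT. Its fitted difference of 2.64 (SE 0.58, adjusted p = 0.521) uses the dim WT skin values. Ppif, the mitochondrial cyclophilin D, had a difference of 0.88 (SE 0.32).

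Of the second kind, Grk5, a kinase that shuts off G protein-coupled receptors, read 8.01, 8.29, 8.10 and 8.42 in KO skin and 8.57, 8.54 and 8.52 in WT skin, but 8.01, 7.95 and 7.42 in KO liver against 7.20, 7.01 and 7.23 in WT liver. Its difference was -0.98 (SE 0.24, adjusted p = 0.616), and a second probe gave -0.92. Tpst2, which sulfates tyrosines of secreted proteins, had -0.72 (SE 0.20). Phgdh, the first enzyme of serine synthesis, had -0.93 (SE 0.34), Plin5 -1.04 (SE 0.37) and Flt1 -0.99 (SE 0.33). Each of these values is small beside the keratin-associated genes, and none was called.

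Among the genes of the daily clock, KO and WT arrays were separate more often in liver than in skin, a contrast that was not tested over the list. The clock is a loop in which BMAL1, encoded by Arntl, and CLOCK drive the genes of their own repressors and of output factors such as DBP. Of 12 core clock genes kept, 0 had all KO skin arrays below all WT skin arrays (5.41% of all genes did) and 0 had them all above (4.27%). In liver 5 were wholly below (6.86% of all genes) and 2 wholly above (4.73%). Arntl read 9.67, 8.57, 8.85 and 8.71 in KO skin against 9.83, 8.84 and 8.68 in WT skin, and 9.0, 9.02 and 8.54 in KO liver against 7.25, 7.31 and 6.68 in WT liver. The liver groups were far apart and the skin groups overlapped. Its difference was -1.94 (SE 0.46, adjusted p = 0.582). Of the 12 genes, it alone had an unadjusted p below 0.05. The list's median difference was -0.12, beside 0.00 over all genes kept, and ranged from -0.25 to 0.24 over 31 alternatives.

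Of 18 clock output genes kept, 1 was wholly lower in KO skin (5.41% of all genes) and 0 wholly higher (4.27%). In KO liver 8 were wholly lower (6.86%) and 2 wholly higher (4.73%). Usp2, a deubiquitinase, read 8.07, 8.30, 9.05 and 8.95 in KO skin against 9.09, 8.51 and 9.11 in WT skin, and 6.14, 6.56 and 7.16 in KO liver against 8.73, 8.47 and 10.25 in WT liver. Its difference was 2.22 (SE 0.59, adjusted p = 0.631), and a second probe gave 0.98. Dbp read 11.30 on skin KO 1 and 14.64 to 15.03 on the other KO skin arrays, against 13.91 to 15.01 in WT skin, and 13.14, 13.68 and 13.74 in KO liver against 15.56, 15.40 and 15.78 in WT liver. Its difference was 1.48 (SE 1.01), and 2.36 without skin KO 1. Nampt, the enzyme of NAD salvage, had 1.06 (SE 0.48). Nfil3, a repressor that opposes DBP, was wholly higher in KO liver and had -0.86 (SE 0.40). Bhlhe40 and Nr1d2, both clock repressors, were wholly lower in KO liver, with differences of 0.53 (SE 0.29) and 0.88 (SE 0.63). None of these was called, and 4 of the 18 had an unadjusted p below 0.05 with a positive difference (3.11% of all genes) and 1 with a negative one (2.81%).

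Some genes of lipid droplets were lower in KO liver than in WT liver, with overlapping arrays in skin, and none was called. CIDEA and CIDEC (also called FSP27) sit on lipid droplets and help them fuse, and perilipin 4 coats them. Cidea read 14.37, 14.37, 14.30 and 14.10 in KO skin against 14.62, 14.20 and 14.25 in WT skin, and 10.78, 11.82 and 8.45 in KO liver against 12.72, 13.74 and 12.84 in WT liver. All 3 KO liver arrays were below WT, with liver KO 3 lowest, and the skin arrays overlapped. The difference was 2.68 (SE 0.82, adjusted p = 0.76). Cidec read 15.36, 16.87, 16.18 and 16.45 in KO skin against 16.51, 16.91 and 16.58 in WT skin, and 11.37, 11.63 and 8.72 in KO liver against 13.23, 13.27 and 13.55 in WT liver, and its difference was 2.33 (SE 0.81). Plin4 read 9.98, 9.71 and 7.54 in KO liver against 10.95, 10.91 and 11.23 in WT liver, with a difference of 1.45 (SE 0.69). Without liver KO 1, KO 2 and WT 3, which leaves 1 KO liver array, Cidea reached 4.71 (adjusted p = 0.00282) and Cidec 4.07 (adjusted p = 0.0236). Without liver KO 3 they were 1.73 and 1.40.

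Of the 17 lipid droplet and lipolysis genes kept, 12 had a positive difference (50.4% of all genes kept did), with a median of 0.32, and 2 positive (3.11% of all genes) and 1 negative (2.81%) had an unadjusted p below 0.05. Plin5, the perilipin of oxidative tissues, was the negative one: it read 10.70, 11.72, 11.32 and 12.02 in KO skin against 12.03, 12.27 and 12.54 in WT skin, and 13.42, 13.61 and 13.46 in KO liver against 13.16, 13.35 and 13.39 in WT liver. The summed adipocyte markers, 18 genes on the array that share Cidea, Cidec, Plin4 and others with this list, were 18.51 to 19.11 in KO skin and 18.97 to 19.35 in WT skin. In liver they were 15.82 to 16.27 in KO and 16.39 to 16.84 in WT. Of the 13 adipocyte markers kept, 10 had a positive and 3 a negative difference. Adipoq was among the negative ones, with -1.37 (SE 0.49). It read 7.10, 6.81 and 5.66 in KO liver against 5.73, 5.09 and 5.69 in WT liver. It was well above background on only 2 of 3 WT liver arrays. What part adipocyte content has in these differences was not tested.

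**Figure D3:**
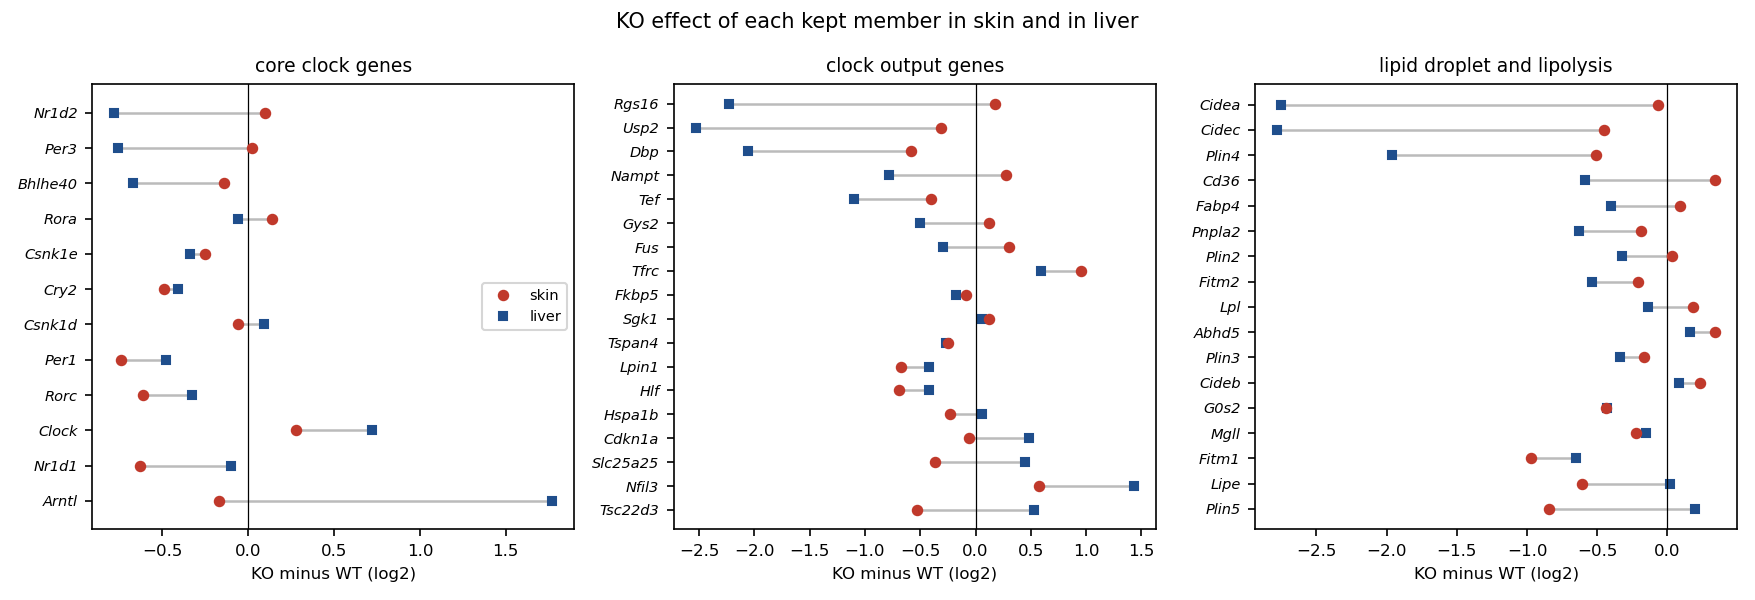
KO minus WT (log2) of each kept member in skin (red circles) and liver (blue squares) for 12 core clock genes, 18 clock output genes and 17 lipid droplet and lipolysis genes, ordered from the most positive difference at the top. Rgs16, Usp2, Cidea and Cidec have the longest lines among positive differences, with the liver point on the left, and Arntl has the longest among negative ones.

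Among chaperones of the endoplasmic reticulum (ER), negative differences were the more frequent. These proteins fold secreted proteins and are induced together when unfolded proteins build up. Of 25 kept, 17 had a negative difference, with a median of -0.17 (skin median 0.14, liver median 0.32). Of the 25, 6 had an unadjusted p below 0.05 with a negative difference and 0 with a positive one, against 2.81% and 3.11% of all genes kept. In skin, 3 of the 25 were wholly higher in KO than in WT (4.27% of all genes kept were) and 0 wholly lower (5.41%). In liver 12 were wholly higher (4.73%) and 0 wholly lower (6.86%). None was called. The genes of pancreatic enzymes described last were also high on all 3 KO liver arrays and on liver WT 3. The chaperone median was -0.28 without liver WT 3, and the part of pancreatic RNA in it was not tested.

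Creld2, an ER-resident folding factor, read 12.24, 11.73, 11.96 and 11.85 in KO skin against 12.00, 11.66 and 11.68 in WT skin, and 14.03, 13.81 and 13.35 in KO liver against 12.46, 12.63 and 12.30 in WT liver. The liver groups did not overlap and the skin groups did. Its difference was -1.10 (SE 0.28, adjusted p = 0.616). Hyou1, a large chaperone of the HSP70 family, had -1.05 (SE 0.37), Syvn1, the ubiquitin ligase of ER-associated degradation, -1.0 (SE 0.37), Sdf2l1 -0.80 (SE 0.32) and Manf, a secreted ER stress factor, -0.77 (SE 0.28). All 5 were wholly higher in KO liver. Among the WT liver arrays, liver WT 3 had the lowest Creld2 and Hyou1 but the highest Sdf2l1, with 11.76 against 11.24 and 11.04 on liver WT 1 and 2. Hspa5, which encodes BiP, the main ER chaperone, was wholly higher in KO in both tissues, but only narrowly in skin. It read 12.78, 12.30, 12.44 and 12.32 in KO skin against 11.17, 12.27 and 12.03 in WT skin. In liver it read 14.69, 14.48 and 14.27 in KO against 13.46, 13.92 and 13.83 in WT, so its difference was -0.11 (SE 0.36). In skin the lowest KO array, at 12.30, was close to the highest WT array, at 12.27, and skin WT 1 lay apart from the other WT skin arrays.

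Many ER folding genes are known to carry the ER stress response element, to which NF-Y and ATF6 bind. The motif, CCAAT, then 9 bases of any kind, then CCACG, searched on both strands in RefSeq windows of build GRCm38.p6 from 250 bases before to 50 after each gene's start, was found in 8 of the 22 kept members that have a window (36.4%), in 0.178% of all kept genes with one and in 0.137% of all genes with one. The 250 bases upstream of the start are shown for 2 members with a difference near -1 and for Hspa5, with the element in capitals, 5′ to 3′ on the gene's strand. They lie at chr15:88819396-88819645 (Creld2), chr19:6046326-6046575 (Syvn1) and chr2:34771840-34772089 (Hspa5), all on the plus strand.
Creld2: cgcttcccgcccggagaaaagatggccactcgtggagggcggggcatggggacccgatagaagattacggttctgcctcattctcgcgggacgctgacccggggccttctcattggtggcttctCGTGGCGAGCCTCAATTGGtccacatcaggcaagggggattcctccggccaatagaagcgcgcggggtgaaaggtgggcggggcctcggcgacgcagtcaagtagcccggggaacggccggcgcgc
Syvn1: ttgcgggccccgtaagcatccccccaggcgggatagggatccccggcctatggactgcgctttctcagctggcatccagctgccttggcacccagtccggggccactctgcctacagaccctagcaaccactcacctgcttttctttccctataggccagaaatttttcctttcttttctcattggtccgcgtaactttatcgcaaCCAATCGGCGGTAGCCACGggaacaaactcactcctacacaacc
Hspa5: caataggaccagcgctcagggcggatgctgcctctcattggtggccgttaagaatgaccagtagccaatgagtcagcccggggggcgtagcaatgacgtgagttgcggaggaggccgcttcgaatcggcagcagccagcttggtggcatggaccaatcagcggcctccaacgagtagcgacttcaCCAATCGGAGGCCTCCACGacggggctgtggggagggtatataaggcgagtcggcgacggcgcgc
In Creld2 the element is in reverse orientation, 126 to 108 bases before the start, in Syvn1 it is 44 to 26 bases before it and in Hspa5 65 to 47 bases before it. The members that hold it had differences of both signs. Creld2, Syvn1, Calr and Hspa5 were negative (-1.10, -1.0, -0.30 and -0.11), and Hsp90b1, Dnajc3, Canx and Pdia6 positive (0.38, 0.24, 0.22 and 0.02). Of the 8, 6 were wholly higher in KO liver, against 12 of all 25 chaperones kept and 4.73% of all genes kept. A match is a description of these letters and not a shown binding site.

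**Figure D4:**
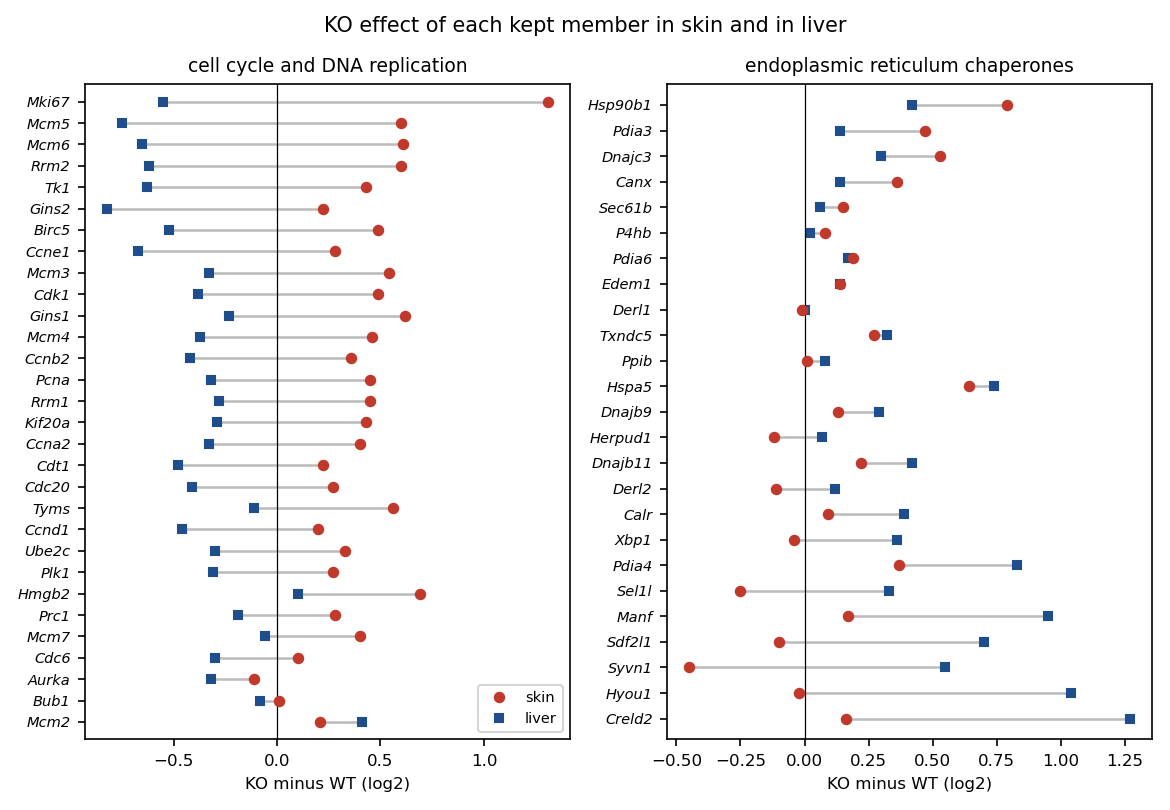
KO minus WT (log2) of each kept member in skin (red circles) and liver (blue squares) for 30 cell cycle genes and 25 ER chaperones, ordered from the most positive difference at the top. All cell cycle genes but Mcm2 have the skin point on the right, and the lowest ER chaperones have the liver point on the right.

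Of 30 cell cycle and DNA replication genes kept, 29 had a positive difference (50.4% of all genes kept did), with a median of 0.73, made of a median of 0.42 in skin and -0.33 in liver. An unadjusted p below 0.05 was found for 11 of the 30, all positive, against 3.11%, and none was called. Mcm6, a subunit of the replicative helicase, read 12.31, 11.68, 11.93 and 11.67 in KO skin against 11.16, 11.33 and 11.36 in WT skin, and 10.95, 10.94 and 9.95 in KO liver against 11.42, 10.93 and 11.46 in WT liver. The skin groups did not overlap and the liver groups did. Its difference was 1.27 (SE 0.37, adjusted p = 0.745).

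Mcm5 and Mcm3, of the same helicase, had 1.34 (SE 0.41) and 0.87 (SE 0.29), and Ccne1, the cyclin of S phase entry, had 0.95 (SE 0.30). Mki67, the gene of the proliferation antigen Ki-67, read 11.90, 10.78, 10.87 and 9.62 in KO skin against 8.54, 9.85 and 10.05 in WT skin, and 8.35, 8.21 and 7.05 in KO liver against 8.31, 8.48 and 8.47 in WT liver. Its difference was 1.86 (SE 0.71, adjusted p = 0.77), with overlapping arrays in both tissues. Mcm2 was the 1 gene with a negative difference, -0.21 (SE 0.63). Between 27 and 30 of the genes were positive in every one of 31 alternatives, and the median ranged from 0.50 without skin KO 1 to 1.23 without liver KO 1, KO 2 and WT 3. The hair follicle markers, whose sums are given above, were also higher in KO skin, and their part in the cell cycle values was not tested.

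Genes of cholesterol synthesis and uptake had medians of -0.07 in skin and -0.32 in liver. Of 24 kept, 16 had a positive difference (50.4% of all genes kept did), with a median of 0.19, and 4 had an unadjusted p below 0.05, all positive (3.11% of all genes). In skin 0 members were separate between KO and WT, and in liver 7 were wholly lower in KO (6.86% of all genes) and 0 wholly higher (4.73%). Msmo1, a sterol demethylase, read 14.91, 14.39, 14.59 and 14.42 in KO skin against 14.06, 14.28 and 14.46 in WT skin, and 12.79, 12.59 and 12.42 in KO liver against 13.01, 13.09 and 13.43 in WT liver. The groups were separate in liver only, and its difference was 0.88 (SE 0.26, adjusted p = 0.745). Stard4, a cholesterol carrier, had 0.90 (SE 0.32), Sqle, the squalene epoxidase, 0.88 (SE 0.40), and Idi1, of isoprenoid synthesis, 1.41 (SE 0.60).

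Of 23 genes of fatty acid and triglyceride synthesis kept, 15 had a positive difference, with a median of 0.24 that was -0.03 without liver KO 3. Fads2, the delta-6 desaturase, had 1.14 (SE 0.36) and Lpin2, a phosphatidate phosphatase, 0.90 (SE 0.32). Both were wholly lower in KO liver. Among 29 genes of fatty acid oxidation the median was 0.07, with 16 positive. Pdk4, the kinase that turns off pyruvate dehydrogenase, had -1.58 (SE 0.50): it read 12.55, 12.09, 12.00 and 11.66 in KO skin against 13.54, 12.63 and 12.85 in WT skin, and 9.51, 9.02 and 7.97 in KO liver against 7.88, 8.49 and 8.20 in WT liver. KO skin was wholly below WT, and the liver arrays overlapped.

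Other liver-led genes included Avpr1a, the vasopressin receptor of hepatocytes, which read 6.97, 7.35, 7.73 and 7.62 in KO skin against 8.31, 7.69 and 7.61 in WT skin. In liver it read 9.79, 9.06 and 10.18 in KO against 8.05, 8.12 and 8.48 in WT. Its difference of -1.91 (SE 0.40, adjusted p = 0.521) had the smallest p of the negative ones. Elovl3, a fatty acid elongase, had -1.72 (SE 0.64), Chka, a choline kinase, -1.01 (SE 0.25) and Dclre1a, a DNA crosslink repair nuclease, 1.10 (SE 0.24). Each had KO liver arrays wholly to one side of WT.

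Marker lists of cell types differed in their shifts, and no marker on them was called. Medians were -0.05 for 12 lymphocyte, -0.07 for 21 macrophage and myeloid, -0.14 for 11 keratinocyte, 0.24 for 14 fibroblast and 0.33 for 14 hepatocyte markers. Without liver KO 1, KO 2 and WT 3 the macrophage and myeloid median was 0.51, the fibroblast 0.69 and the hepatocyte 0.05. The keratinocyte median was -1.25 without liver KO 3 and 0.53 with slide as a fixed block. The lymphocyte median was -0.40 and 0.38 in the same 2 settings. All 19 endothelial markers kept had a negative difference, with a median of -0.42, made of -0.49 in skin and 0.00 in liver, and 1 had an unadjusted p below 0.05. That was Flt1, a receptor for vascular growth factor, whose second probe gave 0.28. Robo4 had -0.94 (SE 0.47), with 9.60 on skin KO 1 and 10.91 to 11.13 on the other KO arrays, against 11.36 to 12.03 in WT skin. Summed endothelial markers were 13.80 to 14.57 in KO skin and 14.73 to 14.93 in WT skin. The median was -0.30 without skin KO 1. Skeletal muscle markers had a median of -0.86 over 17 genes, 16 of them negative, which was 0.16 without liver WT 2 and 0.45 without liver KO 1, KO 2 and WT 3. Their sums were 19.79 to 21.15 in KO skin and 20.98 to 21.30 in WT skin, and 10.43 to 13.98 in KO liver and 10.61 to 13.75 in WT liver.

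Within the JNK pathway, 19 genes were kept, 8 with a positive difference, with a median of -0.07. Junb, an AP-1 factor, had 0.78 (SE 0.29), and Atf2 had 0.51 (SE 0.20), with 8.09, 8.12, 8.05 and 8.11 in KO skin against 7.63, 8.0 and 8.04 in WT skin, and 8.43, 8.36 and 8.47 in KO liver against 8.85, 8.67 and 8.68 in WT liver. Map2k7, which encodes the JNK kinase MKK7, had -0.63 (SE 0.28). The 41 NRF2 target and antioxidant genes split into 21 above and 20 below zero (median 0.01), and of the 12 genes of NADPH oxidases and other oxidant sources 4 were positive, with a median of -0.23 and no unadjusted p below 0.05. Without the same 3 liver arrays, the NRF2 median was 0.36 and the median of the oxidant sources 0.14. The medians of 35 oxidative phosphorylation genes and of 23 p53 targets were 0.02 and 0.01. Of 23 genes of the integrated stress response, 16 were negative, with a median of -0.20, and Ddit4, an inhibitor of growth signalling, had -0.64 (SE 0.23).

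Gpnmb, a glycoprotein of lysosome-rich macrophages and pigment cells, was the 1 gene called in both tissues, and no difference between its effects was detected. It read 7.30, 7.27, 7.61 and 6.52 in KO skin against 10.02, 11.98 and 11.54 in WT skin, and 6.74, 5.48 and 4.70 in KO liver against 10.74, 9.29 and 10.34 in WT liver. It fell in both tissues, with effects of -4.0 in KO skin (adjusted p = 0.0189) and -4.48 in KO liver (adjusted p = 0.00829), and the difference was 0.48 (SE 0.78, adjusted p = 0.881). It was well above background on 3 of 4 KO skin arrays, 3 of 3 WT skin arrays, 1 of 3 KO liver arrays and 3 of 3 WT liver arrays, so the liver effect and the difference rest on mostly dim KO liver values. Gdf10, a growth factor gene, lies at chr14:34748161-34748220 of mm9, like Fam25c within 10 Mb of the Mapk8 probe. It was below WT without overlap in both tissues, by -1.36 in skin and -1.79 in liver, with a difference of 0.43 (SE 0.40).

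The most negative differences belonged to secreted pancreatic enzymes, whose level differed among the WT liver arrays. Ctrc, chymotrypsin C, read 10.79, 9.86, 8.66 and 11.44 in KO skin against 10.72, 11.09 and 10.75 in WT skin, and 14.21, 14.10 and 15.21 in KO liver against 7.80, 7.58 and 14.11 in WT liver. Its difference was -5.35 (SE 1.79, adjusted p = 0.77). Cela3b, an elastase, had -5.27, Prss2, a trypsin, -5.18, Clps, the colipase, -5.15 and Sycn, a zymogen granule protein, -4.99. Liver WT 3 was as high as the KO liver arrays for all 5, and liver WT 1 and 2 were low.

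Of 43 genes of pancreatic cells listed after these values were seen, 21 were kept and 20 had a negative difference, with a median of -4.25. Their median level was 8.08 to 10.54 on the KO skin arrays and 9.50 to 10.02 on the WT skin arrays. In liver it was 12.74, 12.78 and 13.67 in KO and 7.50, 6.67 and 12.62 in WT. Without liver WT 3, 19 genes were called lower, all of them from this list, and 2 higher, Fam25c and Rgs16. As liver WT 3 was the WT liver array with a high median, leaving it out by itself makes such differences more negative. The list was also made from the same values. The 19 calls therefore cannot show whether the KO changed these genes, which was not tested.

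**Figure D5:**
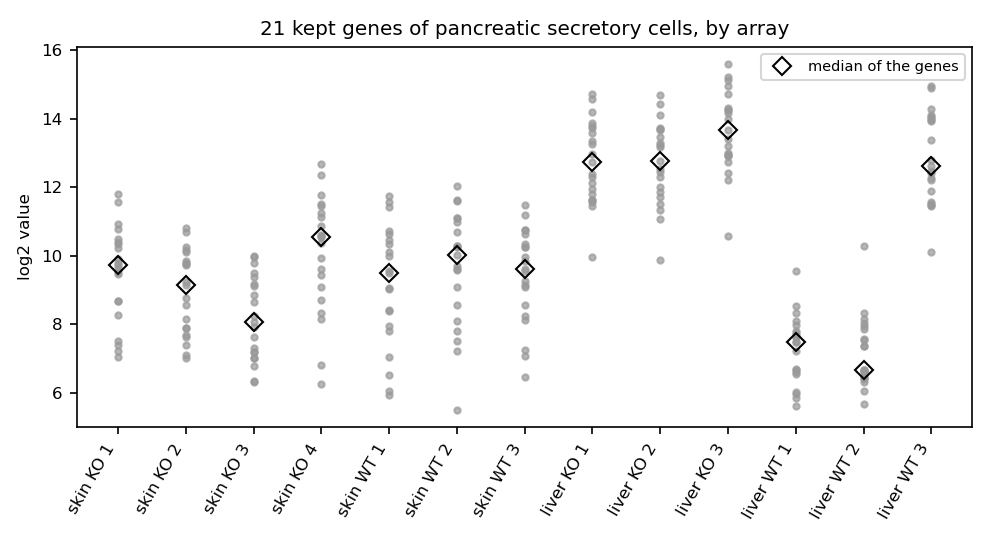
Log2 values of 21 kept genes of pancreatic secretory cells on each of the 13 arrays (grey points, 1 a gene; open diamonds, their median). The 3 liver KO arrays and liver WT 3 have medians from 12.62 to 13.67, liver WT 1 and 2 have 7.50 and 6.67, and the skin arrays lie in between.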

How the data were processed

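RNA of skin and liver was hybridised to single-colour Agilent mouse arrays after Cy3 labelling of 0.2 ug of RNA, per the labels' protocols. The deposited scanner files give background-subtracted intensity per spot, per the file headers, and served for background calls and alternatives. Agilent Feature Extraction 10.7.3.1 and limma are the tools in the submitters' processing notes. The values tested are the authors' deposited log2 table, whose normalization, centring and exact scaling stay unknown. Each column correlated with its own scanner file at r of 0.984 or more across probes, so higher means brighter. Medians per column ran 5.95, 5.96, 6.0 and 5.92 in KO skin (arrays 1 to 4), 5.94, 5.92 and 5.92 in WT skin, 5.87, 5.84 and 5.78 in KO liver and 5.79, 5.80 and 5.83 in WT liver.

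Of 41174 probes, 27808 matched RefSeq, and the brightest probe of a gene name stood for it. Which exon or UTR a probe lies in was not analysed here. Group means were fitted over the 13 arrays with limma 3.58.1 in R 4.3.3 (two-sided, p adjusted by Benjamini-Hochberg over all 12009 genes, called below 0.05). The number of arrays limits the precision. The fit was tested on simulated data. For a group with every array dim, a fold is a bound, set by the higher of that probe's level and the lowest level among probes above background. For Mapk8 in skin the WT group was partly dim as well, so its fold is given as measured. The 13 arrays lay on 5 slides, none of which held all 4 groups. In neither tissue did a KO array share a slide with a WT array. The KO effects within a tissue therefore compare arrays of different slides, and the part of slide in them was not tested. Skin and liver shared a slide in KO (slide 6) and in WT (slides 3 and 4), so the difference was also fitted with slide as a fixed block.

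The contrast, lists and settings were chosen with earlier results of these data known. Named genes are the JNK genes, Rpp14 (not among the genes kept), Gpnmb and Gdf10, the 10 smallest p and 5 largest differences of each sign, at most 4 per list by p and at most 3 neighbours of Mapk8, of which the text gives a part. Mki67, Mcm2, Sdf2l1, Hspa5, Dbp, Nampt, Nfil3, Slc5a6, Saa2 and ENSMUST00000079151 were chosen after their values were seen, as was the pancreatic list. Alternatives varied the values, scaling, filter, probes, variance model, samples and blocks.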

Additional observations from a re-analysis of the deposited data

Results flagged for a closer look

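Several genes had all KO arrays on one side of WT in skin and on the opposite side in liver. They were 0.225% of all genes kept with KO above WT in skin and 0.183% the other way. None of these differences was called by the limma contrast, and whether their number exceeds that of unrelated effects was not tested. Among genes named above, the difference was 4.22 for Crym, 2.64 for Hunk, 0.88 for Ppif and 0.51 for Atf2. It was -0.98 for Grk5, -0.72 for Tpst2, -1.04 for Plin5, -0.99 for Flt1 and -0.93 for Phgdh.

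In the 4 KO skin arrays of the 69 genes examined, 3 genes had 1 array far from the others, and chance marks about 1 in 20 such groups. In each it was skin KO 1. The gap to the nearest array, as a share of the range, was 0.896 for Dbp and 0.855 for Robo4, both low on that array, and 0.867 for Idi1, high on it. Skin KO 1 also had the smallest share of probes well above background, 38.9%, and skin WT 1 had nearly as small a share, 39.5%. The cutoff used was for groups of 4 arrays, so the groups of 3 were not examined this way. Skin WT 1 also stood apart for some genes, such as Postn, with 8.16 against 10.70 and 10.82 on the other WT skin arrays.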

How the results depend on the processing

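The 0 calls in each direction held in 22 of 32 alternatives. Calls higher numbered 2 with no filter and 2 with the filter met in either tissue (Lrit1 and A930038B10Rik), 2 with every kept probe on its own, 5 with array quality weights, 4 with 21 arrays, 2 with 20 arrays, 1 with the replicate block as a fixed term (Slc24a5), and 9 without liver KO 1, KO 2 and WT 3. Calls lower numbered 1 with array weights (Ms4a8a) and 19 without those 3 liver arrays, of which 17 were pancreatic. Leaving out 1 array gave 0 to 2 calls higher and 0 to 19 lower. The fit without those 3 arrays leaves 1 KO liver array, assumed to vary like the others. Same-numbered skin and liver arrays deviated together with r of -0.059, -0.011 and 0.039 in KO and 0.258, -0.016 and 0.161 in WT. Differently numbered arrays gave r from -0.116 to 0.116 in KO and from -0.23 to 0.153 in WT. As the labels do not pair samples, the numbers were not taken to do so. With the replicate block as a random term there were 0 calls. With slide as a fixed block there were 0 calls in limma and the smallest adjusted p was 0.258. At an unadjusted p below 0.05 the split was 251 positive and 440 negative with scanner values scaled to the 75th percentile, which moved the median difference to -0.09, against 373 and 338. Of 69 named genes, all but 4 kept their sign in every alternative that gave a value, though some became called. Mapk9 was 0.00 with the mean of its probes, -0.09 without skin KO 2 and -0.12 without liver WT 2 (leaving out 1 array, -0.12 to 0.33). Gpnmb was -0.43 with normexp, -0.22 with slide as a fixed block, -0.10 without skin WT 1 and -0.14 without the 2 dim skin arrays (leaving out 1 array, -0.10 to 1.03). Mcm2 was 0.01 with weights, 0.14 with the fixed replicate block, 0.14 without skin KO 4, 0.28 without liver WT 2 and 0.07 without the 3 liver arrays (leaving out 1 array, -0.72 to 0.28). Hspa5 was 0.12 without skin WT 2, 0.03 without liver WT 1 and 0.06 without the 3 liver arrays (leaving out 1 array, -0.43 to 0.12). The cause of these moves was not tested.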

Other observations

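Of 31 matrix genes kept, 18 had a positive difference (58.1%, against 50.4% of all genes kept), with a median of 0.12, and 3 had an unadjusted p below 0.05, all positive (3.11% of all genes). None was called. Postn, which encodes the matricellular protein periostin, read 12.95, 11.51, 11.52 and 10.81 in KO skin against 8.16, 10.70 and 10.82 in WT skin, and 8.22, 7.74 and 7.42 in KO liver against 8.05, 7.89 and 9.45 in WT liver. All groups overlapped, and its difference was 2.47 (SE 0.93, adjusted p = 0.77). Gadd45a, a growth arrest gene, had 1.37 (SE 0.52) and was wholly lower in KO liver. In skin it overlapped, with 7.575 to 8.22 in KO against 5.96, 7.67 and 7.70 in WT. Only 2 of the 3 WT skin arrays were well above background for it. The matrix list's median was -0.14 without liver KO 3 and 0.62 without liver KO 1, KO 2 and WT 3. Medians were -0.04 for 26 interferon response genes, 0.02 for 29 genes of insulin signalling and glucose control and 0.16 for 19 cytokines and chemokines. They were -0.04 for 20 cytosolic heat shock proteins, 0.12 for 18 genes of mitochondrial proteostasis and 0.02 for 14 thyroid hormone response genes. Without the same 3 liver arrays, the interferon median was 0.35 and the cytokine and chemokine median 0.81.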
